A study of Arabidopsis thaliana with 27 samples.

Results

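The genes described here are the UDP-glycosyltransferase (UGT) genes of Arabidopsis thaliana, the thale cress. Members were all probe sets that the platform annotation ties to 1 gene with a symbol of UGT followed by a number, without UGT78D2, and with 1 probe set kept for a gene. This gave 46 genes out of 22746 probe sets on the array, in 11 subfamilies. Subfamily 71 had 9 members, 76 had 8, 73 had 7, 84 and 85 had 5 each, 72 had 4, 74 had 3 and 78 had 2, while 80, 87 and 88 had 1 each. The gene table lists 58 UGT symbols, and 3 probe sets that name a UGT beside other genes were not used. None of the 46 probe sets is of a type marked as matching several transcripts.

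Leaf RNA was measured on 27 single-colour Affymetrix arrays, 1 array for each sample. The tested genotype, called the mutant, is the double null gpa1-4/agb1-2, which carries null alleles of the alpha subunit gene GPA1 and the beta subunit gene AGB1 of the heterotrimeric G protein in every group, clean air included. The comparison genotype was Col-0 (Columbia wild type). Plants 4 to 5 weeks old, raised with 9 h of light and 15 h of darkness, stood in ozone at 125 ppb or in clean air at 5 ppb for 7 h of each day, and mid-whorl leaves were sampled 3 h or 2 d into exposure. At 2 d the mutant had 4 arrays in ozone and 3 in clean air, and wild type had 4 and 4. At 3 h each of the 4 combinations had 3 arrays. GPA1 and AGB1 had no named probe set, so the genes that carry the null alleles were not analysed here. The labels call the replicates biological but do not say which plants were pooled, so p-values measure the spread between these arrays, part of which may be technical.

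UGTs transfer a sugar, mostly glucose from UDP-glucose, onto small molecules. In plants this makes hormones such as abscisic acid, salicylic acid, auxin and cytokinins inactive or storable, finishes the synthesis of flavonoid glycosides and glucosinolates, and tags foreign or toxic compounds for storage in the vacuole. Ozone enters leaves through stomata and breaks down there to reactive oxygen species, and several UGT genes are known to respond to oxidative stress and to pathogens.

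Values are log2(intensity + 1) of the deposited intensities, and the added 1 understates the change of dim genes. Array medians lay between 154 and 182 intensity units and replicate arrays correlated at 0.916 to 0.965 across probe sets. The leaf identity of the samples was checked with the 5 measured mesophyll markers, and their summed intensity was 50180 to 129300 on every array, while the sum of the 2 root markers was at most 198.1. Wild type in ozone at 3 h, replicate 3, stood apart: its mean correlation with its group, 0.923, was the lowest of the 27 arrays. It was also the lowest of its group in 7 of the 7 members that stood highest in ozone (UGT71B6, UGT71C1, UGT73B4, UGT73B5, UGT73D1, UGT76B1 and UGT87A2, chosen after their values were seen). In the same 7 members the mutant in clean air had its highest value in 6 on replicate 2 at 3 h and in 6 on replicate 3 at 2 d. Mutant ozone replicates 2 at 3 h and 4 at 2 d were the highest of their groups in 7 of 7. For the first 3 of these arrays, values without them are given where a call changed or a change moved by over 1.5 times.

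Of the 46 members, 16 had a mean below 5 over all arrays, 9 lay between 5 and 7 and 21 lay above 7. The median within-group SD was 0.93 for the dim members, 0.75 for the middle ones and 0.47 for the bright ones, against 0.93, 0.48 and 0.32 for all probe sets in the same ranges. The middle and bright UGT genes thus had wider scatter between replicate arrays than probe sets of like level. No member was at 0 on any array. Tests come from limma's moderated linear model over all 22746 probe sets with Benjamini-Hochberg adjustment, a member passed at an adjusted p under 0.05, and errors of differences are standard errors.

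At 3 h ozone was accompanied by higher signal for 3 UGT genes, each past the threshold in 1 or both genotypes. UGT71B6, whose enzyme glucosylates the hormone abscisic acid, rose in both. UGT71C1, whose enzyme glucosylates phenylpropanoids and flavonoids in vitro, passed in wild type. UGT73B5, a gene needed for full resistance to avirulent Pseudomonas bacteria, passed in the mutant. UGT71C1 and UGT73B5 had every ozone array above every clean-air array in both genotypes, and no difference between genotypes passed. In the mutant 2 of 46 members passed as higher and 0 as lower, where 0.615% of all probe sets passed as higher and 0.0352% as lower. In wild type 2 of 46 passed as higher and 0 as lower, against 1.2% and 0.299% of all probe sets. The median change over all members was 0.04 in the mutant and 0.21 in wild type, and the median over all probe sets was −0.04 in the mutant and −0.01 in wild type.

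**Figure D1:**
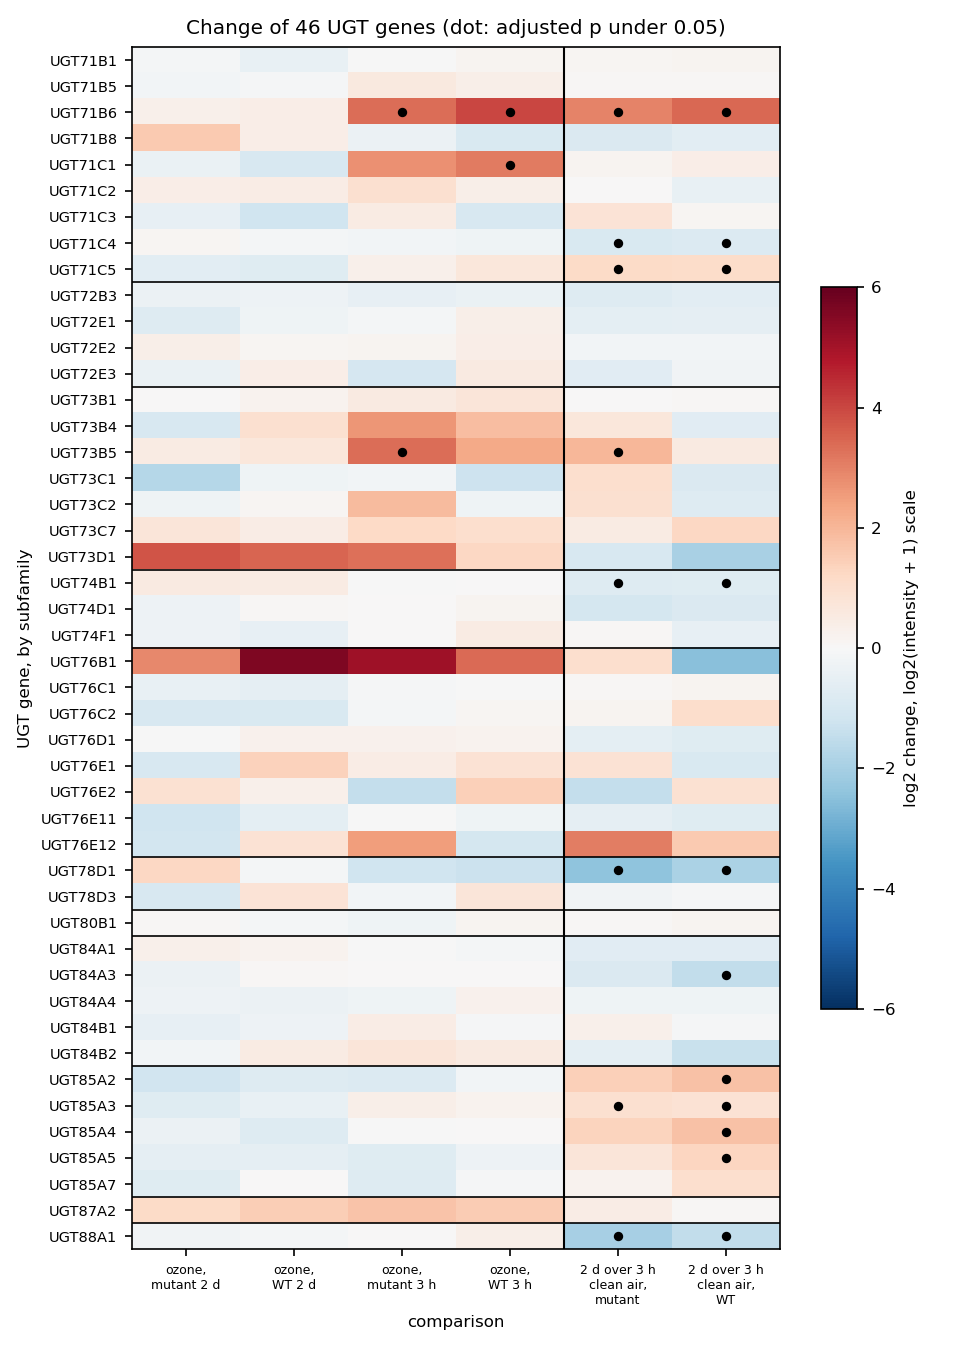
Log2 change of each of the 46 UGT genes (rows, grouped by subfamily) for ozone over clean air in the mutant and wild type (WT) at 2 d and 3 h (left 4 columns) and for 2 d over 3 h in clean air (right 2 columns). Red marks a positive and blue a negative change, and a black dot marks an adjusted p under 0.05; the 2 d ozone columns hold no dot, and the clean-air columns hold 8 for the mutant and 11 for wild type.

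UGT71B6 had 5.90, 7.18 and 5.63 on the mutant ozone arrays at 3 h, against 2.26, 3.68 and 2.70 in mutant clean air. Wild type had 6.68, 7.51 and 4.82 in ozone, against 2.07, 2.56 and 2.29 in clean air. Every ozone array lay above every clean-air array of its genotype, and wild-type ozone replicate 3 was the lowest of the 6 ozone arrays. The change was 3.36 ± 0.76 in the mutant (adjusted p = 0.0408 in limma) and 4.03 ± 0.76 in wild type (adjusted p = 0.0104). Its clean-air signal at 3 h was near the floor, with mean intensities of 7.03 in the mutant and 4 in wild type. The size of the change is therefore uncertain. With a pseudocount of 16 the change was 2.01 in the mutant, where the call was lost (adjusted p = 0.0892), and 2.33 in wild type, where it held (adjusted p = 0.0291). The mutant call was lost too with quantile normalization (adjusted p = 0.0578), with arrays centred on their median (adjusted p = 0.0562) and with a fit of the 3 h arrays alone (adjusted p = 0.0873).

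At 2 d the same gene was at a similar level with and without ozone. It had 5.21, 5.83, 6.67 and 6.77 in mutant ozone, against 5.81, 5.35 and 6.34 in mutant clean air. Wild type had 4.63, 6.15, 7.24 and 6.68 in ozone, against 5.93, 6.51, 3.74 and 6.85 in clean air. The groups overlapped in both genotypes, and the changes of 0.28 ± 0.71 and 0.41 ± 0.65 did not pass. Clean-air plants sampled at 2 d thus stood near the level that ozone plants had already at 3 h.

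UGT71C1, a dim member with a mean of 3.80 over all arrays, had its highest group means in a single condition, ozone at 3 h. It had 5.52, 6.61 and 5.19 in mutant ozone at 3 h, against 3.15, 3.19 and 2.72 in clean air. Wild type had 7.27, 7.76 and 4.38 in ozone, against 3.51, 2.83 and 3.70 in clean air. Neither genotype's groups overlapped. The change was 2.75 ± 0.75 in the mutant (adjusted p = 0.0983 in limma) and 3.12 ± 0.75 in wild type (adjusted p = 0.0381). The wild-type call was lost when the 3 h arrays were fitted alone (adjusted p = 0.111). At 2 d the means were 2.80 ± 0.88 in mutant ozone, against 3.18 ± 0.83 in mutant clean air, and 2.76 ± 0.99 in wild-type ozone, against 3.74 ± 1.01 in wild-type clean air (SD, n = 4, 3, 4 and 4). No 2 d array reached 5, and the changes of −0.38 ± 0.71 and −0.98 ± 0.65 did not pass. Wild-type ozone replicate 3 at 3 h, at 4.38, did not reach 5 either, and wild-type clean-air replicate 2 at 2 d had 4.99. With a pseudocount of 16 the wild-type change at 3 h was 2.14 (adjusted p = 0.0139 in limma).

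UGT73B5 had 7.29, 8.64 and 7.11 in mutant ozone at 3 h, against 4.51, 3.99 and 4.50 in mutant clean air. Wild type had 8.54, 8.55 and 6.41 in ozone, against 5.65, 5.61 and 5.38 in clean air. The ozone arrays lay above the clean-air arrays in both genotypes. The change was 3.35 ± 0.58 in the mutant (adjusted p = 0.0111 in limma) and 2.29 ± 0.58 in wild type (adjusted p = 0.0502, just outside the threshold). The mutant call was lost when the 3 h arrays were fitted alone (adjusted p = 0.0521). In wild type the change passed with a pseudocount of 16, the level filter, quantile normalization and a mean-variance trend (adjusted p = 0.0408, 0.0336, 0.0452 and 0.0397). At 2 d the changes were 0.51 ± 0.55 in the mutant and 0.67 ± 0.51 in wild type, and neither passed. Its direct neighbour on the chromosome, UGT73B4, had 5.17, 6.86 and 6.08 in mutant ozone at 3 h, against 2.87, 5.04 and 2.23 in clean air. In wild type it had 7.06, 6.19 and 3.87 in ozone, against 4.38, 3.32 and 3.89 in clean air. The mutant groups were apart and the wild-type groups overlapped through ozone replicate 3, and the changes of 2.66 ± 1.21 and 1.84 ± 1.21 did not pass.

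UGT87A2, which acts on flowering time in Arabidopsis, stood higher in ozone in all 4 comparisons by similar amounts. At 3 h it had 11.37, 12.08 and 11.49 in mutant ozone, against 9.49, 11.02 and 9.37 in clean air, and in wild type 12.09, 12.34 and 10.92 in ozone, against 10.81, 9.81 and 10.11 in clean air. At 2 d it had 11.06, 11.88, 11.04 and 12.27 in mutant ozone, against 9.86, 10.12 and 11.27 in clean air, and in wild type 10.93, 11.72, 12.04 and 12.52 in ozone, against 10.29, 10.52, 9.46 and 11.05 in clean air. The groups were apart at 3 h in both genotypes and overlapped slightly at 2 d. The changes at 3 h were 1.69 ± 0.53 in the mutant and 1.54 ± 0.53 in wild type, and at 2 d 1.15 ± 0.49 and 1.47 ± 0.46, none of which passed on its own (adjusted p = 0.0722 to 0.338 in limma).

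UGT76B1, whose enzyme glucosylates isoleucic acid, salicylic acid and N-hydroxypipecolic acid and so restrains immune responses, had the widest scatter of the 46 members, and the largest ozone change in the mutant at 3 h and in wild type at 2 d. At 3 h it had 9.49, 11.71 and 8.06 in mutant ozone, against 3.96, 8.93 and 1.07 in clean air, and in wild type 10.97, 11.87 and 5.00 in ozone, against 6.49, 5.38 and 5.76 in clean air. At 2 d it had 4.75, 9.99, 9.22 and 10.15 in mutant ozone, against 5.11, 4.80 and 7.03 in clean air, and in wild type 6.95, 6.87, 9.72 and 12.27 in ozone, against 4.42, 3.96, 1.63 and 3.39 in clean air. The groups were apart in wild type at 2 d and overlapped in the other 3 comparisons, each time through 1 array of the ozone or the clean-air group. The changes were 5.10 ± 1.88 in the mutant and 3.40 ± 1.88 in wild type at 3 h, and 2.88 ± 1.76 and 5.60 ± 1.63 at 2 d, and none passed (lowest adjusted p = 0.0572 in limma, wild type at 2 d).

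UGT73D1 followed a similar course. At 2 d it had 6.85, 7.98, 7.57 and 8.32 in mutant ozone, against 2.43, 4.40 and 4.85 in clean air, and in wild type 6.06, 6.77, 8.51 and 9.29 in ozone, against 5.06, 4.19, 2.51 and 4.96 in clean air. At 3 h it had 7.68, 10.56 and 6.21 in mutant ozone, against 5.35, 6.76 and 2.43 in clean air, and in wild type 8.83, 9.66 and 3.61 in ozone, against 7.17, 5.16 and 6.06 in clean air. The groups were apart at 2 d in both genotypes and overlapped at 3 h. The changes at 2 d were 3.79 ± 1.26 in the mutant and 3.48 ± 1.17 in wild type (adjusted p = 0.197 and 0.0950 in limma), and at 3 h 3.30 ± 1.35 and 1.24 ± 1.35.

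**Figure D2:**
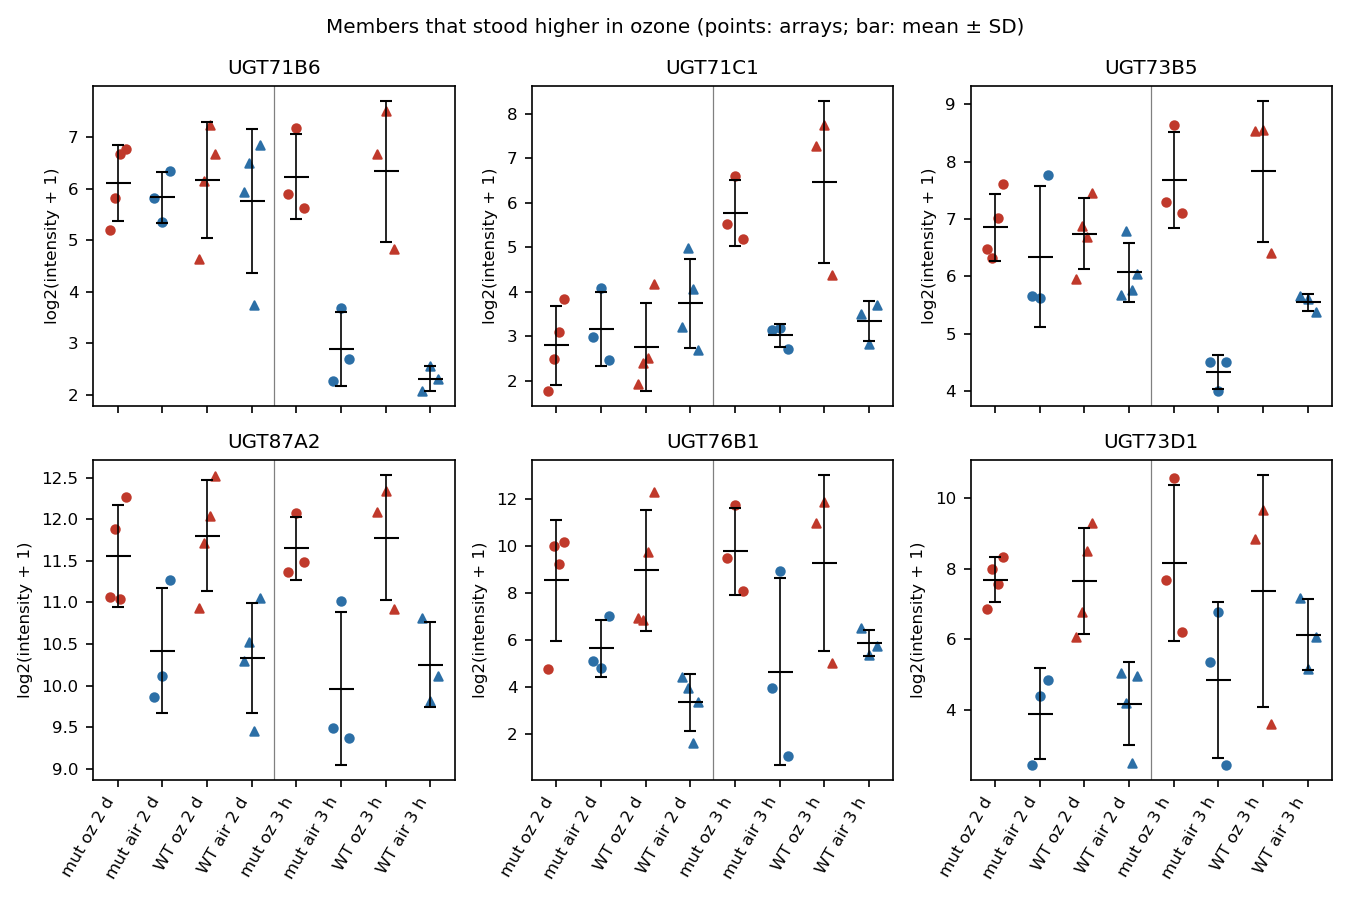
Level of 6 UGT genes on every array, as log2(intensity + 1), in the 8 groups (mut, mutant; oz, ozone; air, clean air), with 2 d left of 3 h. Points are arrays (red ozone, blue clean air, with circles for mutant and triangles for wild type) and bars give mean ± SD. UGT71C1 has its highest group means in ozone at 3 h, and UGT76B1 shows the widest scatter within groups.

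Replicate 3 of wild type in ozone at 3 h bore on all of these. Without it 4 members passed in that comparison, in place of 2, and 1230 of all probe sets passed, in place of 342. UGT71B6 changed by 4.79 (adjusted p = 0.00507 in limma), UGT71C1 by 4.17 (adjusted p = 0.00507), UGT73B5 by 3.00 (adjusted p = 0.00668) and UGT87A2 by 1.97 (adjusted p = 0.0458). Without mutant clean-air replicate 2 at 3 h, 3 members passed in the mutant, UGT87A2 being the addition with a change of 2.22 (adjusted p = 0.0438). Of all probe sets 296 passed there, in place of 148. Members that did not pass moved too. Without wild-type ozone replicate 3 the wild-type change at 3 h was 3.12 for UGT73D1, in place of 1.24 (adjusted p = 0.145 in limma). For UGT76B1 it was 5.54, in place of 3.40 (adjusted p = 0.0877 in limma). That array was the lowest of its group in all 7 members chosen for high ozone values, and mutant clean-air replicate 2 was the highest in 6 of them. Leaving out such an array raises the changes of those members, so the calls gained are no separate support for a rise. Over the 6 fits that each left out 1 array, the wild-type change at 3 h was 0.09 to 3.12 for UGT73D1 and 2.11 to 5.54 for UGT76B1. The mutant change at 3 h was 2.09 to 4.27 for UGT73D1 and 3.31 to 7.24 for UGT76B1. At 2 d, without mutant clean-air replicate 3, the mutant change was 1.22 for UGT73B5, in place of 0.51, and −0.74 for UGT76E11, in place of −1.20. Leaving out each of the 6 arrays in turn gave 0 to 3 members past the threshold in the mutant and 0 to 4 in wild type. Over all probe sets it gave 3 to 296 in the mutant and 59 to 1230 in wild type. UGT71B6 passed in 2 of those 6 fits in the mutant and 4 of 6 in wild type, UGT73B5 in 3 of 6 in the mutant and UGT71C1 in 1 of 6 in wild type. The count was 0 in the mutant without ozone replicate 2 or clean-air replicate 1 or 3, and 0 in wild type without ozone replicate 1 or 2.

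The senescence and defence gene SAG101 also had higher means in ozone in all 4 comparisons. It was the 1 senescing-leaf marker that was measured, and its intensity at 3 h was 352.4 to 1309 in mutant ozone, against 93.5 to 707.7 in clean air, and 141.1 to 959.3 in wild-type ozone, against 169.3 to 347.7 in clean air. At 2 d it was 396.9 to 689.2 in mutant ozone, against 284.2 to 396.4 in clean air, and 570.5 to 1006 in wild-type ozone, against 221.9 to 273 in clean air. None of its ozone changes passed, and its part in the UGT results was not tested. In whole leaves, fewer cells of a type and less RNA per cell cannot be told apart.

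At 2 d no UGT gene passed in either genotype taken alone. In the mutant 0 of 46 passed in limma, where 0.189% of all probe sets did. At an unadjusted p under 0.05 it had 5 members higher and 5 lower, where 12.3% of all probe sets met that limit. In wild type 0 of 46 passed, against 3.45% of all probe sets. At an unadjusted p under 0.05 it had 4 members higher and 3 lower, against 20.8% of all probe sets. The median change of members was −0.29 in the mutant and 0.05 in wild type, and that of all probe sets was −0.01 in the mutant and −0.09 in wild type. Changes above 0 in all 4 ozone comparisons were found for 9 of the 46 members (UGT71B6, UGT71C2, UGT72E2, UGT73B1, UGT73B5, UGT73C7, UGT73D1, UGT76B1 and UGT87A2), and 10.9% of all probe sets had that pattern. Changes below 0 in all 4 were found for 6 members, against 14.9% of all probe sets.

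The genotypes were then averaged to use all arrays of a time point, a comparison added after the data were seen. At 3 h 4 members passed as higher and 0 as lower, against 4.32% and 1.87% of all probe sets. UGT71B6 rose by 3.69 ± 0.53 (adjusted p = 0.000247 in limma), UGT71C1 by 2.94 ± 0.53 (adjusted p = 0.00167), UGT73B5 by 2.82 ± 0.41 (adjusted p = 0.000268) and UGT87A2 by 1.61 ± 0.37 (adjusted p = 0.0107). With a pseudocount of 16 the change of UGT71B6 was 2.17 (adjusted p = 0.00127). All 4 passed in each of the 12 fits that left out 1 array of that time point.

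At 2 d the averaged comparison passed 4 members as higher and 5 as lower, against 5.51% and 5.25% of all probe sets. The higher ones were UGT76B1 with 4.24 ± 1.20 (adjusted p = 0.0269 in limma), UGT73D1 with 3.63 ± 0.86 (adjusted p = 0.0101), UGT87A2 with 1.31 ± 0.33 (adjusted p = 0.0157) and UGT74B1 with 0.52 ± 0.12 (adjusted p = 0.00714). UGT74B1 codes for the S-glucosyltransferase of glucosinolate synthesis. UGT73D1 and UGT74B1 passed in all 15 fits that left out 1 array, UGT87A2 in 14 and UGT76B1 in 9. Without mutant clean-air replicate 3 the count was 6, and with the 2 d arrays fitted alone it was 4, in place of 9.

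UGT74B1 at 2 d differed by a small amount in both genotypes. It had 10.95, 10.69, 10.67 and 10.38 in mutant ozone at 2 d, against 10.20, 10.17 and 10.05 in clean air, and in wild type 10.44, 10.69, 10.57 and 10.92 in ozone, against 9.91, 9.97, 10.21 and 10.48 in clean air. The mutant groups were apart, and the wild-type groups overlapped through clean-air replicate 4. At 3 h its change was −0.03 ± 0.18 in the mutant and 0.03 ± 0.18 in wild type.

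The 5 lower members at 2 d were UGT85A2, UGT76E11, UGT71C5, UGT85A3 and UGT76C1. Of the 15 fits that left out 1 array, UGT76E11 and UGT85A3 passed in 12, UGT71C5 in 10, UGT76C1 in 7 and UGT85A2 in 4. UGT85A2 had 9.45, 9.32, 9.79 and 10.49 in mutant ozone, against 10.10, 10.65 and 11.97 in clean air, and in wild type 10.01, 9.50, 10.20 and 10.44 in ozone, against 9.95, 10.87, 11.18 and 11.32 in clean air. The groups overlapped in both genotypes, and the averaged change was −0.97 ± 0.30 (adjusted p = 0.0427 in limma). UGT76E11, whose enzyme glucosylates flavonols, had 6.79, 7.50, 8.13 and 8.19 in mutant ozone, against 8.33, 8.46 and 9.77 in clean air, and in wild type 7.98, 7.21, 8.78 and 8.45 in ozone, against 8.56, 8.63, 8.46 and 9.21 in clean air. The mutant groups were apart and the wild-type groups overlapped, with an averaged change of −0.90 ± 0.25 (adjusted p = 0.0245).

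UGT71C5, another enzyme that glucosylates abscisic acid, had 8.79, 8.88, 8.85 and 9.26 in mutant ozone at 2 d, against 9.54, 8.92 and 10.34 in clean air, and in wild type 8.34, 8.89, 8.81 and 9.61 in ozone, against 9.34, 9.86, 9.34 and 10.04 in clean air. In both genotypes 1 ozone array reached into the clean-air range. The averaged change was −0.69 ± 0.19 (adjusted p = 0.0264 in limma). UGT76C1, a cytokinin N-glucosyltransferase, had an averaged change of −0.48 ± 0.14 (adjusted p = 0.0343), and its paralogue UGT76C2, with the same known activity, had −0.93 ± 0.32, which did not pass (adjusted p = 0.0636). UGT85A3 changed by −0.58 ± 0.16 (adjusted p = 0.0253). With the 2 d arrays fitted alone, none of these 5 lower calls passed (adjusted p = 0.0628 to 0.0798), and without mutant clean-air replicate 3 those of UGT85A2, UGT76E11 and UGT71C5 were lost (adjusted p = 0.124, 0.0711 and 0.0757).

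The mesophyll markers stood lower in the same samples. All 5 had averaged ozone changes below 0 at 2 d, and the photosystem I subunit gene PSAN fell by 0.78 (adjusted p = 0.0119 in limma). Their summed intensity at 2 d was 51830 to 75240 in mutant ozone, against 72740 to 88330 in mutant clean air, and 50180 to 77120 in wild-type ozone, against 65330 to 91960 in wild-type clean air. Their part in the lower UGT levels was not tested.

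**Figure D3:**
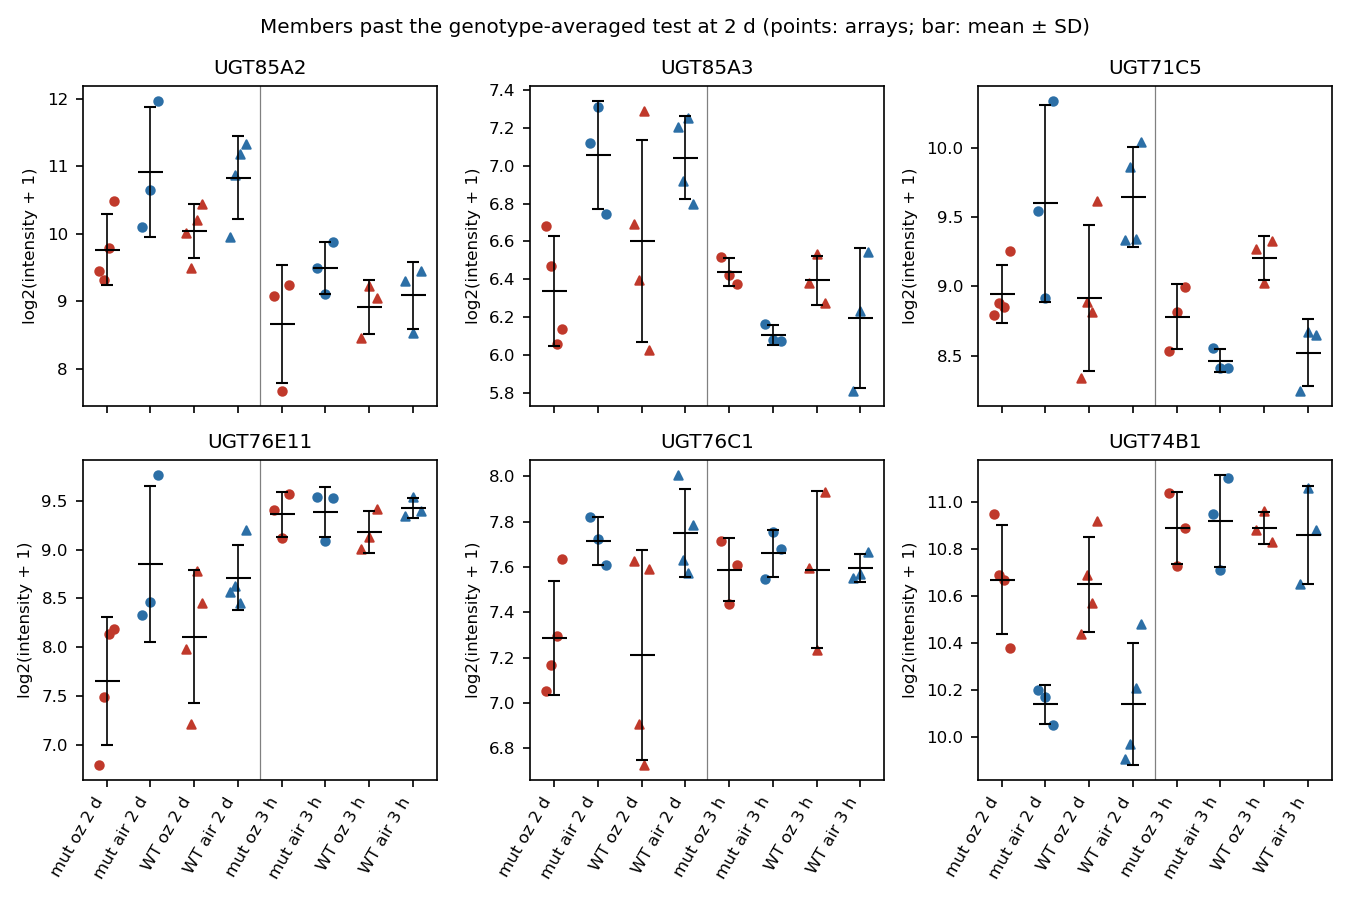
Level on every array, as log2(intensity + 1), of the 5 UGT genes lower and of UGT74B1, which was higher, in ozone at 2 d with genotypes averaged. Groups, colours, symbols and bars (mean ± SD) run as mutant ozone, mutant clean air, wild-type ozone and wild-type clean air at 2 d and then at 3 h; at 2 d the red ozone points sit mostly below the blue clean-air points, except for UGT74B1.

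The change with ozone differed between 2 d and 3 h for a few members. In wild type 1 of 46 passed the test of that difference, UGT71C1 with −4.10 ± 1.0 (adjusted p = 0.0457 in limma), where 1.24% of all probe sets passed. This call was lost with quantile normalization (adjusted p = 0.0618). At an unadjusted p under 0.05, 0 members were higher and 4 lower in wild type, where 15.7% of all probe sets met that limit. In the mutant 0 of 46 passed in limma, against 0.0352% of all probe sets, and at an unadjusted p under 0.05 it had 3 higher and 8 lower, against 11.7%. UGT71C1 had −3.13 ± 1.03 there. The wild-type call of UGT71C1 passed in 3 of 14 fits that left out 1 array.

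With genotypes averaged, 0 members passed as higher and 5 as lower for 2 d against 3 h, where 4.35% and 3.05% of all probe sets passed. These were UGT71C1 with −3.62 ± 0.72 (adjusted p = 0.00502 in limma), UGT71B6 with −3.34 ± 0.72 (adjusted p = 0.00771), UGT73B5 with −2.22 ± 0.56 (adjusted p = 0.0187), UGT71C5 with −1.19 ± 0.29 (adjusted p = 0.0163) and UGT85A3 with −0.85 ± 0.24 (adjusted p = 0.0350). With a pseudocount of 16 the difference for UGT71B6 was −1.90 (adjusted p = 0.0271). The call of UGT85A3 was lost with quantile normalization (adjusted p = 0.0616) and without mutant clean-air replicate 2 at 3 h (adjusted p = 0.0506). UGT71C5 and UGT85A3 stood higher in ozone at 3 h and lower at 2 d, though neither 3 h change passed. For UGT87A2 the difference was −0.30 ± 0.50, with a 95% interval of −1.34 to 0.73, and for UGT76B1 −0.01 ± 1.79, with an interval of −3.73 to 3.70. The early and late changes of UGT76B1 could therefore differ by several log2 units in either direction at this number of arrays.

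**Figure D4:**
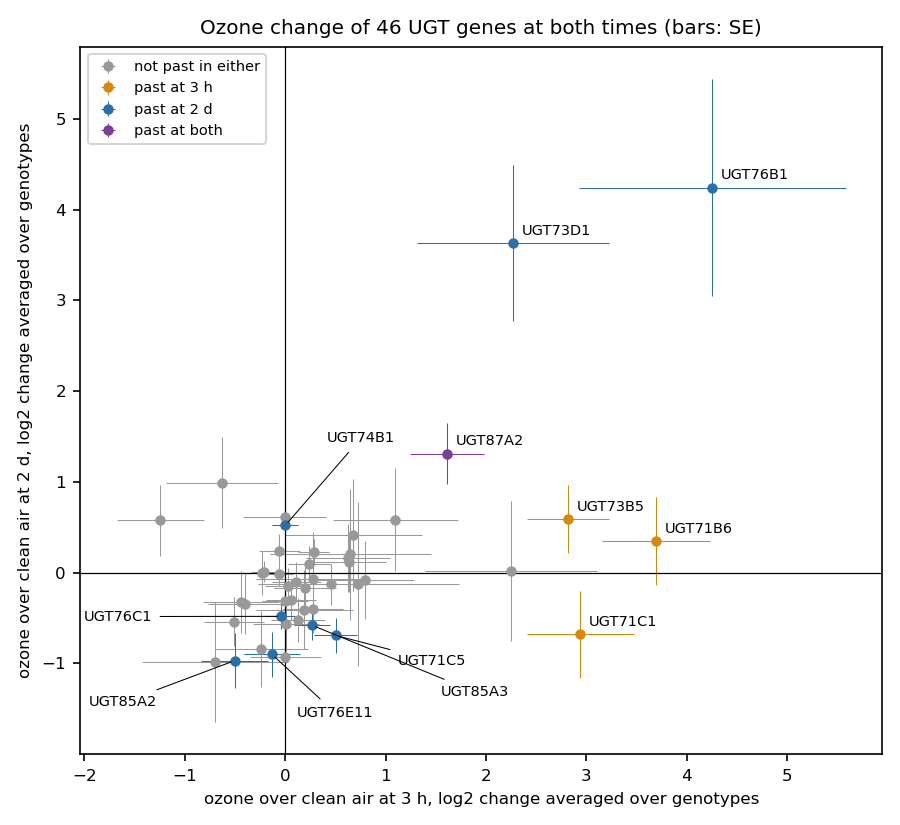
Log2 change with ozone averaged over genotypes at 3 h (horizontal) and at 2 d (vertical) for each of the 46 UGT genes, with SE bars. Orange genes passed at 3 h, blue genes at 2 d and purple UGT87A2 at both; UGT71B6, UGT71C1 and UGT73B5 lie far to the right near the horizontal axis, while UGT76B1 and UGT73D1 lie at upper right.

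No difference between mutant and wild type passed for any member. In clean air 0 of 46 passed in limma at 2 d and at 3 h, where 0.0132% of all probe sets passed at each time. At an unadjusted p under 0.05 clean air had 0 members at 2 d, against 2.69% of all probe sets, and 2 higher and 2 lower at 3 h, against 3.8%. In ozone 0 of 46 passed in limma, against 0.00879% of all probe sets at 2 d and 0.0176% at 3 h. At an unadjusted p under 0.05 ozone had 0 members at 2 d, against 3.46% of all probe sets, and 0 higher and 2 lower at 3 h, against 5.59%. With all conditions averaged, 0 of 46 passed in limma, against 0.0132% of all probe sets, and 3 were lower at an unadjusted p under 0.05, against 5.81%. Those 3 were UGT73C2, UGT84B1, an auxin glucosyltransferase gene, and UGT72E2, a monolignol glucosyltransferase gene.

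The response to ozone did not differ detectably between genotypes. The test of that difference passed for 0 of 46 members in limma at either time, and for 0% of all probe sets. At an unadjusted p under 0.05 it had 0 members at 2 d, where 2.84% of all probe sets met that limit, and 1 higher and 2 lower at 3 h, against 2.76%. At 3 h the mutant's change minus that of wild type was −0.67 for UGT71B6, with a 95% interval of −2.90 to 1.55. It was −0.37 for UGT71C1 (−2.58 to 1.84), 1.06 for UGT73B5 (−0.65 to 2.77) and 0.15 for UGT87A2 (−1.39 to 1.70). These intervals leave room for differences above 1 log2 unit, so equal responses were not shown.

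The 3 members with an unadjusted p under 0.05 in that test at 3 h were all dim, with means below 5 over all arrays. UGT76E2 had 3.04, 3.07 and 3.93 in mutant ozone, against 4.14, 5.31 and 4.89 in clean air, and in wild type 3.38, 6.0 and 5.27 in ozone, against 3.32, 3.47 and 3.58 in clean air. The ozone arrays lay below the clean-air arrays in the mutant, and in wild type 2 of 3 lay well above them. UGT72E3, another monolignol glucosyltransferase gene, had 2.58, 3.29 and 2.74 in mutant ozone, against 3.56, 4.37 and 3.67 in clean air, and in wild type 3.61, 3.23 and 3.51 in ozone, against 2.98, 2.63 and 3.14 in clean air. UGT73C2 had 4.64, 4.32 and 4.37 in mutant ozone, against 1.93, 3.97 and 1.81 in clean air, and in wild type 4.90, 4.93 and 3.94 in ozone, against 4.63, 4.90 and 5.08 in clean air. In the mutant 2 of the 3 clean-air arrays were far below all other arrays of the gene at that time. The adjusted p was 1.0 for each of the 3 in limma.

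Between 2 d and 3 h in clean air 12 UGT genes changed in at least 1 genotype. In the mutant 4 of 46 passed as higher at 2 d and 4 as lower, where 2.39% and 3.22% of all probe sets did. In wild type 6 passed as higher and 5 as lower, against 4.57% and 5.43% of all probe sets. The labels do not give the hour of day at sampling, so days of treatment, plant age and hour of day cannot be told apart here.

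From a signal near the floor at 3 h, UGT71B6 rose by 2.96 ± 0.76 in the mutant (adjusted p = 0.0210 in limma) and by 3.45 ± 0.71 in wild type (adjusted p = 0.00273). With a pseudocount of 16 these changes were 1.67, which did not pass (adjusted p = 0.0812), and 1.89, which did (adjusted p = 0.0200). UGT71C5 rose by 1.14 ± 0.31 in the mutant and 1.12 ± 0.29 in wild type (adjusted p = 0.0290 and 0.0139). UGT73B5 rose by 2.01 ± 0.58 in the mutant (adjusted p = 0.0451), while in wild type its change was 0.52 and did not pass. The mutant call was lost with a pseudocount of 16 (change 1.49, adjusted p = 0.0895) and without mutant clean-air replicate 3 at 2 d (change 1.30, adjusted p = 0.279).

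All 5 UGT85A genes stood higher at 2 d in clean air in both genotypes. UGT85A2, UGT85A3, UGT85A4 and UGT85A5 rose in wild type by 1.74 ± 0.44, 0.85 ± 0.24, 1.77 ± 0.44 and 1.29 ± 0.39 (adjusted p = 0.0139, 0.0249, 0.0112 and 0.0390 in limma). In the mutant UGT85A3 rose by 0.95 ± 0.25 (adjusted p = 0.0279), and UGT85A2, UGT85A4, UGT85A5 and UGT85A7 had changes of 1.42, 1.34, 0.72 and 0.23 that did not pass. UGT85A4 had 9.02, 8.60 and 8.41 in mutant clean air at 2 d, against 7.54, 7.07 and 7.40 at 3 h, and in wild type 8.44, 8.79, 8.35 and 9.44 at 2 d, against 6.21, 7.33 and 7.43 at 3 h. The 2 d arrays lay above the 3 h arrays in both genotypes.

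With ozone at 2 d the same 5 genes lay below clean air in the mutant, with changes of −1.15 to −0.35, and 4 of 5 did in wild type, with changes of −0.79 to 0.03. UGT85A2 and UGT85A3 fell in the averaged comparison.

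Other members fell between the times in clean air. UGT88A1 had 10.31, 10.97 and 9.56 in mutant clean air at 2 d, against 12.35, 11.91 and 12.50 at 3 h, and in wild type 10.35, 10.14, 10.76 and 9.57 at 2 d, against 11.29, 11.85 and 11.84 at 3 h. The times did not overlap in either genotype, and the changes were −1.97 ± 0.44 and −1.45 ± 0.41 (adjusted p = 0.00799 and 0.0256 in limma). UGT71C4 had 9.85, 9.84 and 9.65 in mutant clean air at 2 d, against 10.79, 10.47 and 10.89 at 3 h, and in wild type 9.65, 9.91, 9.98 and 10.21 at 2 d, against 10.62, 10.77 and 10.86 at 3 h. These were also apart, with changes of −0.93 ± 0.18 and −0.82 ± 0.17 (adjusted p = 0.00218 and 0.00251).

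UGT78D1, the flavonol 3-O-rhamnosyltransferase gene, had 8.08, 7.19 and 6.79 in mutant clean air at 2 d, against 9.69, 9.54 and 10.10 at 3 h, and in wild type 9.31, 8.54, 6.81 and 8.13 at 2 d, against 10.08, 10.09 and 10.14 at 3 h. It fell by 2.42 ± 0.61 in the mutant and by 1.91 ± 0.57 in wild type on the log2 scale (adjusted p = 0.0193 and 0.0365 in limma). UGT74B1 fell by 0.78 ± 0.18 in the mutant and by 0.72 ± 0.17 in wild type (adjusted p = 0.0116 and 0.0086). UGT84A3, which makes glucose esters of hydroxycinnamic acids, fell by 1.49 ± 0.30 in wild type (adjusted p = 0.00227) and had a change of −0.85 ± 0.32 in the mutant that did not pass (adjusted p = 0.141).

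**Figure D5:**
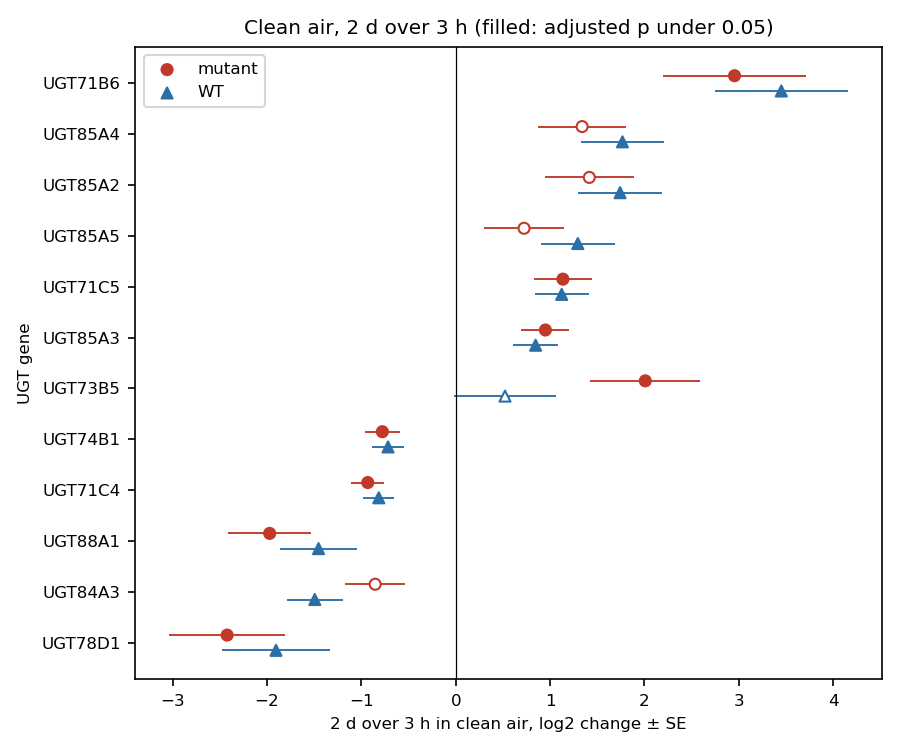
Log2 change between 2 d and 3 h in clean air, with SE bars, for the 12 UGT genes that passed in at least 1 genotype (red circles mutant, blue triangles wild type; filled symbols passed). The genotypes lie on the same side of 0 for all 12 genes, and UGT71B6 is the farthest above 0 and UGT78D1 the farthest below.

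Single clean-air arrays bore on these counts. In the mutant 3 members passed without clean-air replicate 3 at 2 d (UGT71C4 and UGT85A3 among them) and 5 without clean-air replicate 2 at 3 h (UGT71B6, UGT71C4, UGT74B1, UGT78D1 and UGT88A1), in place of 8. Leaving out each clean-air array in turn gave 2 to 7 members in the mutant and 5 to 10 in wild type. Over all probe sets it gave 797 to 1117 in the mutant, in place of 1276, and 1370 to 1959 in wild type, in place of 2273. The lowest counts came without replicate 3 at 3 h in the mutant and without replicate 2 at 3 h in wild type, and 3 members passed without mutant replicate 1 at 3 h. UGT71C4 passed in all of those fits in both genotypes, and UGT71B6 and UGT84A3 in all 7 in wild type. In wild type UGT78D1 and UGT85A5 passed in 1 of 7, UGT85A3 and UGT88A1 in 3, and UGT71C5, UGT74B1, UGT85A2 and UGT85A4 in 6. In the mutant UGT71C5 and UGT85A3 passed in 1 of 6, UGT71B6, UGT73B5 and UGT78D1 in 2, UGT74B1 in 4 and UGT88A1 in 5.

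The members with the lowest changes did not pass in any of the 4 comparisons of ozone with clean air. UGT78D1 at 3 h had 9.22, 7.40 and 9.10 in mutant ozone, against 9.69, 9.54 and 10.10 in clean air, and in wild type 8.77, 8.44 and 9.25 in ozone, against 10.08, 10.09 and 10.14 in clean air. Every ozone array lay below every clean-air array of its genotype. The changes were −1.20 ± 0.61 in the mutant and −1.29 ± 0.61 in wild type (adjusted p = 0.525 and 0.320 in limma). UGT71C3 had 3.02, 2.96, 3.17 and 2.83 in wild-type ozone at 2 d, against 4.61, 4.34, 3.02 and 4.71 in clean air, and the groups overlapped through clean-air replicate 3. Its change was −1.18 ± 0.57 (adjusted p = 0.244). UGT73C1, a dim member, had 3.04, 2.14, 2.26 and 4.43 in mutant ozone at 2 d, against 1.89, 5.40 and 6.80 in clean air, which overlapped, and its change was −1.73 ± 0.97 (adjusted p = 0.491). Without mutant clean-air replicate 3 that change was −0.67.

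Taken by subfamily, the median ozone change at 3 h was highest in subfamily 73 among those with at least 3 members. There 6 of 7 members had changes above 0 in the mutant, with a median of 1.88, and 5 of 7 in wild type, with a median of 0.99, where 46.3% and 49% of all probe sets were above 0. The mutant median was the change of UGT73C2 and the wild-type median that of UGT73C7. Both are dim, with means of 3.94 and 4.41 over all arrays, and neither change passed. UGT73B4 and UGT73C1 were dim too, and UGT73B5 alone of the 7 passed at 3 h, in the mutant. At 2 d the subfamily's medians were 0.02 and 0.45, and UGT73D1 alone of the 7 had a change above 1 in both genotypes. In subfamily 71, 6 of 9 members were above 0 at 3 h in each genotype, with medians of 0.50 and 0.35.

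Subfamily 72, which holds the monolignol glucosyltransferases, had no member past the threshold in any ozone comparison, with changes of −0.99 to 0.53 over both genotypes and times. UGT72E1 had means of 7.70 ± 0.66 in mutant ozone at 2 d, against 8.49 ± 0.12 in clean air (SD, n = 4 and 3), a change of −0.79 ± 0.35 that did not pass. UGT72E2 had means of 7.04 to 7.85 over the 8 groups.

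Subfamily 84 also had no member past the threshold in any ozone comparison, with changes of −0.50 to 0.72. Besides UGT84A3 it holds UGT84A1 and UGT84A4, which act on hydroxycinnamates, and the auxin enzyme UGT84B1. UGT84A1 and UGT84B2 were dim in every group, with group means of 1.97 to 2.85 and 1.69 to 3.54. The sterol glucosyltransferase gene UGT80B1 had group means of 8.76 to 9.16, and its 4 ozone changes lay between −0.27 and 0.14.

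None of the other members that act on salicylic acid or auxin passed with ozone. UGT74F1, a salicylic acid glucosyltransferase gene, was dim, with group means of 2.01 to 3.51 and ozone changes of −0.50 to 0.50. UGT74D1, whose enzyme glucosylates oxidized auxin, had ozone changes of −0.30 to 0.18. In clean air it had changes of −1.05 ± 0.35 in the mutant and −0.88 ± 0.32 in wild type between 2 d and 3 h, which did not pass (adjusted p = 0.0843 and 0.0912 in limma).

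UGT genes lie in tandem rows on the chromosomes, and 29 of the 46 members fell in 12 runs with at most 2 other genes between neighbours, by the gene order of assembly TAIR10.1. There were 14 pairs with no gene between them. UGT71C1 was 2.75 and 3.12 higher in ozone at 3 h in mutant and wild type, while the adjacent UGT71C2 had changes of 0.98 ± 0.96 and 0.37 ± 0.96. UGT71C5 rose and the adjacent UGT71C4 fell between 3 h and 2 d in clean air in both genotypes. In the run of UGT71B1, UGT71B6 and UGT71B8, only UGT71B6 passed in any comparison, and UGT71B1 had group means of 9.38 to 9.84.

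Across the 27 arrays the levels of UGT71C5 and UGT71C4 correlated at −0.43 and those of UGT71C1 and UGT71C2 at 0.18. The 4 adjacent genes UGT85A7, UGT85A2, UGT85A5 and UGT85A3 correlated with each other at 0.31 to 0.66, and UGT73B5 with UGT73B4 at 0.57. These values are descriptions over arrays that share groups, time points and any signal that their related probes have in common.

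The beta-glucosidases remove glucose that UGTs attach. Of 22 measured, 0 passed in limma in any of the 4 ozone comparisons by genotype. Over all probe sets 0.189% passed in the mutant and 3.45% in wild type at 2 d, and 0.651% and 1.5% at 3 h. The 22 had 2 higher and 2 lower in the mutant and 3 higher and 2 lower in wild type at 2 d at an unadjusted p under 0.05, against 12.3% and 20.8% of all probe sets in either direction. At 3 h they had 1 higher and 3 lower in the mutant, against 10.2% of all probe sets, and 1 higher and 1 lower in wild type, against 15.4%. Their median change was −0.02 in the mutant and 0.32 in wild type at 2 d, where that of all probe sets was −0.01 and −0.09. At 3 h it was −0.27 in the mutant and −0.18 in wild type, where that of all probe sets was −0.04 and −0.01. With genotypes averaged BGLU31 rose by 2.19 ± 0.49 at 2 d (adjusted p = 0.00691 in limma), with means of 5.41 in mutant ozone, against 3.20 in clean air, and 5.76 in wild-type ozone, against 3.59 in clean air. BGLU43 fell by 1.43 ± 0.43 at 3 h (adjusted p = 0.0485). Between 2 d and 3 h in clean air BGLU16 rose by 1.71 ± 0.41 in the mutant and 1.49 ± 0.38 in wild type (adjusted p = 0.0137 and 0.0149), and BGLU47 fell by 1.54 ± 0.41 and 1.51 ± 0.38 (adjusted p = 0.0266 and 0.0134).

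Genes of UDP-sugar supply and of detoxification transport and its regulators were barely covered, with 1 named gene measured of each list. USP, a UDP-sugar pyrophosphorylase that supplies the sugar donors, had group means of 9.10 to 9.64 and did not pass in any of the 4 ozone comparisons. ALDH7B4, an aldehyde dehydrogenase of the stress response, had means of 10.03 to 11.58 and did not pass there either.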

How the data were processed

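The authors deposited 1 intensity for each probe set on each array, on a linear scale. The submitters' processing notes name Affymetrix Expression Console and RMA without versions. RMA usually gives log2 values, and the sources used here do not give how these linear intensities were made. Here log2(intensity + 1) was used as it stood, unfiltered. A model of 8 group means over 27 arrays was fitted with limma 3.58.1 in R 4.3.3 (19 residual and 2.53 prior degrees of freedom), with 2-sided moderated tests and Benjamini-Hochberg adjustment within each comparison over 22746 probe sets. The fit was tested on simulated data. There were 14 planned comparisons, and 4 that average over genotypes or conditions were added after the data were seen. The number of arrays limits the precision.

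The platform annotation gives 1 gene for 13513 probe sets and several genes for 503, and it lists no gene for 8730, which stay unnamed. The table of TAIR10.1 genes served only for names and gene order. Every member may be named. Array values are given for members past the threshold (up to 12, by the smallest adjusted p), for the 2 largest rises and falls in each ozone comparison, and for a few members added after their values were seen. The members, lists and tests were chosen with earlier results of these data known. Alternatives were a pseudocount of 16, a filter at a mean of 5 (which kept 30 members), quantile normalization, median centring, replicate number as a block, separate fits per time, each array left out and, added after the data were seen, a mean-variance trend. Promoter and protein sequences were not analysed here.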

Additional observations from a re-analysis of the deposited data

Results flagged for a closer look

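The change with ozone differed between 2 d and 3 h, by a test of the difference itself, for 5 genes with genotypes averaged. The differences, 2 d minus 3 h in log2 units, were −3.62 for UGT71C1, −3.34 for UGT71B6, −2.22 for UGT73B5, −1.19 for UGT71C5 and −0.85 for UGT85A3. In wild type alone the difference was −4.10 for UGT71C1. With genotypes averaged, the calls of UGT71C1, UGT71B6, UGT73B5 and UGT71C5 passed in all 27 fits that left out 1 array, and that of UGT85A3 in 13. UGT71C1 in wild type alone passed in 3 of 14 such fits.

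Arrays moved in opposite directions in 2 further cases, neither of which passed after adjustment. Groups without overlap were common among all probe sets. In exactly 1 ozone comparison by genotype and time, 15.7% had all ozone arrays above all clean-air arrays, and 19.8% had them below. The share of all probe sets with opposite directions was not computed, so whether these 2 cases are unusual was not tested. All mutant ozone arrays of UGT72E3 at 3 h lay below all mutant clean-air arrays, and all wild-type ozone arrays lay above all wild-type clean-air arrays. The difference between genotypes was −1.53 (adjusted p = 1.0 in limma), so it did not pass after adjustment. All mutant ozone arrays of UGT85A3 lay below the clean-air arrays at 2 d and above them at 3 h, with a difference of −1.05 (adjusted p = 0.229 in limma).

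Dixon's test marked no array in 54 tests, over 18 genes in 3 groups of 4 arrays, where chance alone would mark about 1 in 20. Those groups were mutant ozone, wild-type ozone and wild-type clean air at 2 d. No group at 3 h and no mutant clean-air group was tested. The test therefore did not cover wild-type ozone replicate 3 or mutant clean-air replicate 2 at 3 h, or mutant clean-air replicate 3 at 2 d. UGT76B1 on mutant ozone replicate 1 at 2 d, at 4.755 against 9.22 for the nearest array, was not marked.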

How the results depend on the processing

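Up to 65 changes, mostly those that passed or were largest, were compared under the 7 alternatives that kept all arrays, and 0 turned direction. The level filter, the mean-variance trend and separate fits leave a change as it is, so they could not turn one. Over all members, 15 of 644 changes turned with a pseudocount of 16 and 28 with quantile normalization. With median centring 20 turned, and with the replicate block 18. These were at most 0.31 in size in the main fit. Counts of UGT genes past the threshold that moved by over 1.5 times, and the smaller moves for ozone in wild type at 3 h and for time in the mutant, were as follows. For ozone in the mutant at 3 h, 2 became 1 with a pseudocount of 16, with quantile normalization and with median centring, and 0 with separate fits. For ozone in wild type at 3 h, 2 became 1 with separate fits and 3 with a pseudocount of 16, quantile normalization and a mean-variance trend. It stayed at 2 with the level filter, where UGT73B5 passed and UGT71C1 was removed. For ozone in wild type at 2 d, 0 became 1 with the level filter (UGT76B1), and 2 with a mean-variance trend and with separate fits. The difference between times in wild type went to 0 with the level filter, which removed UGT71C1, and to 0 with quantile normalization. The averaged comparison at 2 d went to 4 with separate fits. For time in clean air in the mutant, 8 became 6 with a pseudocount of 16. The averaged ozone comparison at 3 h gave 4 or 5 and the averaged difference between times 5 to 7, where UGT85A3 was lost with quantile normalization. The causes were not tested beyond what each setting leaves out. Counts over all probe sets under these settings are not given here.

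Deviations of same-numbered ozone and clean-air arrays correlated weakly, at −0.06 to 0.28. At 3 h the best match of an ozone array had its own number for replicates 1, 2 and 3 in the mutant. In wild type this held for replicates 1 and 3 at 3 h and for 1, 3 and 4 at 2 d. It held for no replicate of the mutant at 2 d. The main fit has no term for replicate number. With the replicate block the counts were 2 for ozone in wild type at 2 d (UGT76B1 and UGT87A2), 1 for ozone in the mutant at 2 d (UGT76E11) and 2 for the difference between times in wild type. For time in clean air they were 9 in the mutant and 10 in wild type, where the call of UGT78D1 was lost (change −1.72, adjusted p = 0.0523 in limma).

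Leaving out each array in turn gave 0 to 3 UGT genes for ozone in the mutant and 0 to 4 in wild type at 3 h, 0 to 0 and 0 to 2 at 2 d, 0 to 2 for the difference between times in wild type, 2 to 7 and 5 to 10 for time in clean air in mutant and wild type, 4 to 6 and 4 to 9 for the averaged ozone comparisons at 3 h and 2 d, and 4 to 6 for their difference. The genotype comparisons and the mutant's difference between times stayed at 0 UGT genes. Over all probe sets the ozone counts were 3 to 296 in the mutant and 59 to 1230 in wild type at 3 h. At 2 d they were 0 to 176 and 64 to 971. The averaged ozone comparisons gave 750 to 2526 at 3 h and 1378 to 2604 at 2 d, and their difference 1105 to 2112. Another probe set per gene was not tried, as each gene had 1.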
